A study of Mus musculus with 4 samples.

Results

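Transcripts were followed for 8 mouse genes that set and release the brake on translation initiation: the eIF2 kinase genes Eif2ak1, Eif2ak2, Eif2ak3 and Eif2ak4, the kinase substrate Eif2s1, the eIF2 phosphatase subunits Ppp1r15a and Ppp1r15b, and Eif4ebp1, which encodes the cap-dependent translation repressor 4E-BP1. The members were chosen by gene symbol, each read from the probe set carrying that symbol alone. A value was available for 7 of the 8, out of 22180 genes named in this way. Eif2s1 is listed with no such probe set in the annotation table used and was not analysed here. Of the members measured, Ppp1r15a was the only one at least 1.5-fold higher under GSK-J4 than under every control treatment. Eif4ebp1 and Ppp1r15b were higher by less, and the kinase genes stayed within 0.36 (log2) of every control.

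The samples were embryoid bodies, aggregates in which embryonic stem cells start to differentiate, made from R1, a single mouse embryonic stem cell line. All 4 cultures were depleted of feeder cells, deprived of LIF, the cytokine that maintains self-renewal, and harvested after 18 h. They differed in what was added: EB medium only, DMSO, 1.88 µM GSK-J5 or 1.88 µM GSK-J4. GSK-J4, labelled as a specific inhibitor of the KDM6 histone demethylases, is an ester that cells cleave to the active acid. GSK-J5, given as the control compound, is the matching ester of a pyridine regioisomer with little activity on these enzymes. The series asks whether KDM6 inhibition elicits a DNA damage response in differentiating cells. With 1 array per treatment there was no spread between replicates, so no p-value is given, and every difference below describes these 4 arrays.

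Phosphorylation of eIF2 on its alpha subunit, the product of Eif2s1, slows the exchange of GDP for GTP by eIF2B and lowers general translation, while messages such as Atf4 are translated more. Each kinase senses its own stress: HRI (Eif2ak1) responds to heme shortage and mitochondrial stress, PKR (Eif2ak2) to double-stranded RNA, PERK (Eif2ak3) to unfolded proteins in the endoplasmic reticulum, and GCN2 (Eif2ak4) to uncharged tRNA. The kinases are switched on by activation of existing protein, which an array of transcripts does not measure. Ppp1r15a encodes GADD34, the stress-induced subunit that directs protein phosphatase 1 to eIF2 and closes the loop, Ppp1r15b encodes its constitutive counterpart CReP, and Eif4ebp1 is also a known ATF4 target whose product holds the cap-binding protein eIF4E away from eIF4G until mTORC1 phosphorylates it.

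Promoters from RefSeq (GRCm38.p6; 250 bases before to 50 after a start site) matched 6 of the 8 genes: Eif2ak1, Eif2ak2, Eif2ak3, Eif2ak4, Eif2s1 and Ppp1r15a. The Ppp1r15a promoter is shown because this gene had the largest difference among the members. Capitals mark the cAMP response element TGACGTCA, a sequence that ATF and CREB family factors can bind, at position −12 from the start site. The stretch of Eif2ak2 around its start is shown because PKR is an interferon-inducible kinase. Capitals there mark the interferon-stimulated response element, taken as GAAA, any 2 bases and GAAA again, at position 19 after the start.

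Ppp1r15a, chr7:45526269-45526518, minus strand: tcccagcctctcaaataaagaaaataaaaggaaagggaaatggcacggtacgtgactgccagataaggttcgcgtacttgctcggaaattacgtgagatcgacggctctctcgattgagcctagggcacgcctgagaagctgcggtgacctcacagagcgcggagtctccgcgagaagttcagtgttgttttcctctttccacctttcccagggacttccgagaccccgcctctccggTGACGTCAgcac
Eif2ak2, chr17:78882535-78882564, minus strand: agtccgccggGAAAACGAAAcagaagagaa

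Both strands were searched, and none of the matches overlapped another. TGACGTCA occurred in 1.79% of the 32851 promoters of the table, and among the 6 matched genes in Ppp1r15a alone. The interferon element occurred in 3.44%, and among the 6 in Eif2ak2, Eif2s1 (position −212) and Ppp1r15a (position −220, left in lower case above). The ATF4 response element TGATGNAA occurred in 3.97% of all promoters and these letters were in none of the windows of the 6 genes. A match is a run of letters and does not show that a factor was bound.

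Values are log2 expression values as the authors normalized them. The margin of a gene is its distance in the GSK-J4 array from the nearest of the 3 control arrays, and a gene was called higher or lower when the margin reached 1.5-fold (0.585 on the log2 scale). Counting was limited to genes with an average at or above the 40th percentile of all genes (6.585), a filter that 13314 genes and all 7 measured members passed. Of the 7, 1 was called higher and 0 lower. Over all 13314 genes 2.21% were called higher and 0.841% lower. With a control array put in the place of GSK-J4 the same rule called at most 0.0150% in either direction. Each control was there set against the other 3 arrays, GSK-J4 among them, so the reference arrays were not the same.

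The 4 kinase genes differed little and did not move together. Eif2ak1 was the only member lower in GSK-J4 than in every control, and Eif2ak2, Eif2ak3 and Eif2ak4 were above every control by 0.08 to 0.14. Over all genes 38.0% lay above and 35.5% below every control by some amount, so lying outside the controls was common. Eif2ak1, the heme-regulated kinase gene, read 10.28 in medium, 10.18 in DMSO, 10.22 in GSK-J5 and 10.00 in GSK-J4. Its GSK-J4 value was 1.13-fold below the nearest control, and this margin of −0.18 was wider than the 0.10 that separated the controls. A further probe set annotated to both Eif2ak1 and another gene was left out.

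Eif2ak2, the double-stranded RNA sensor gene, read 7.83 in medium, 7.71 in DMSO, 7.55 in GSK-J5 and 7.91 in GSK-J4. The GSK-J5 array was the low one, and the controls spread over 0.28, the widest control range among the members. The difference from GSK-J4 therefore depended on the control: it was 0.36 to GSK-J5, 0.20 to DMSO and 0.08 to medium. Only 2.46% of genes lay as far below medium in GSK-J5 as Eif2ak2 did (−0.28), a difference between a pair of control arrays that was larger than its margin in GSK-J4.

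Eif2ak3, which encodes the endoplasmic reticulum kinase PERK, read 8.57 in medium, 8.46 in DMSO, 8.54 in GSK-J5 and 8.65 in GSK-J4. Its margin of 0.08 was smaller than the control range of 0.11. Eif2ak4, the amino acid sensing kinase gene, read 8.59, 8.42, 8.55 and 8.73 in the same order. Its margin of 0.14 was likewise smaller than the control range of 0.17, with DMSO the lowest array. After quantile normalization was repeated, the margins of Eif2ak3 and Eif2ak4 were 0.02 and 0.08.

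All 4 kinase genes read lower in DMSO than in medium, by 0.10 to 0.17, and all 4 read lower in GSK-J5 than in medium, by 0.03 to 0.28. Across all genes 56.5% were lower in DMSO than in medium and 52.6% were lower in GSK-J5 than in medium. These comparisons share the medium array. The 3 kinase genes that exceeded every control in GSK-J4 were thus closest to the medium array, which was the highest control for each of them.

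**Figure D1:**
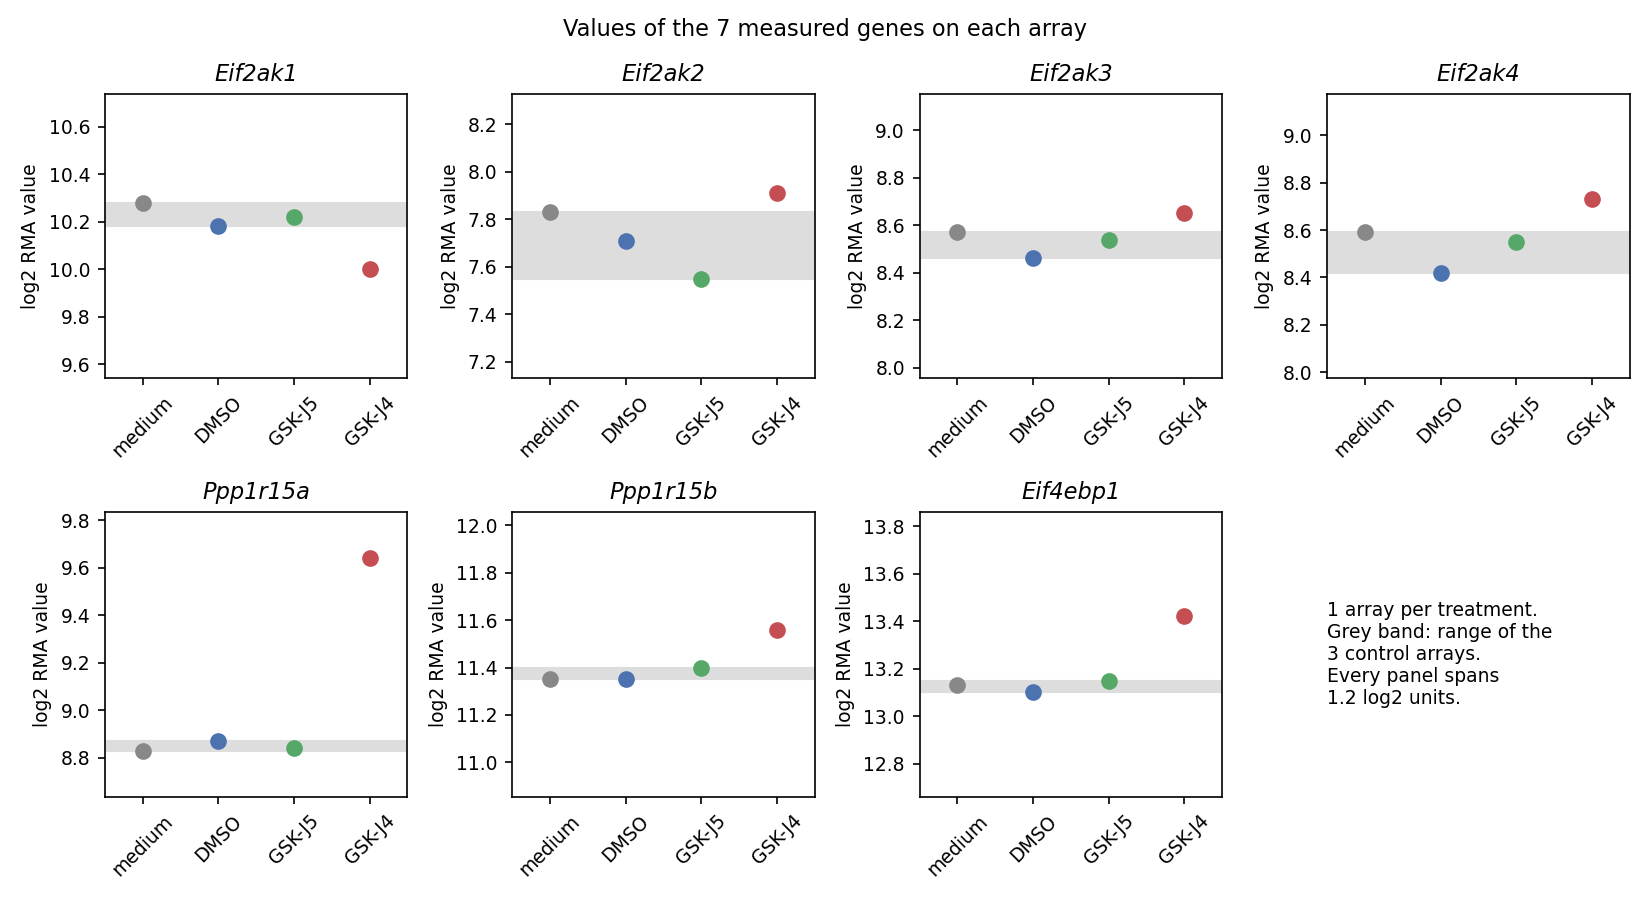
Log2 RMA value of each of the 7 measured genes (vertical axis, every panel spanning the same width) on the medium, DMSO, GSK-J5 and GSK-J4 arrays, 1 point per array; the grey band is the range of the 3 controls. Ppp1r15a in GSK-J4 (9.64) stands clear of a narrow control band (8.83 to 8.87), Eif2ak1 is the only gene whose GSK-J4 point lies below the band, and Eif2ak2 has the widest band (7.55 to 7.83).

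The phosphatase subunit genes both lay above every control, but by unequal amounts. Ppp1r15a, the stress-induced subunit gene whose promoter is printed above, read 8.83 in medium, 8.87 in DMSO, 8.84 in GSK-J5 and 9.64 in GSK-J4. The controls differed from each other by only 0.04, against a median control range of 0.12 over all genes, and GSK-J4 lay 1.71-fold above the highest of them. The difference was 0.80 to GSK-J5, 0.77 to DMSO and 0.81 to medium. It ranked 176, 237 and 175 from the top among the 13314 genes in these comparisons, which share the GSK-J4 array. By the 1.5-fold rule for a single pair, Ppp1r15a was the only member called in any of them, and 0 were lower. Of all genes 3.28% were higher and 1.39% lower than in GSK-J5, 3.89% and 1.57% than in DMSO, and 2.96% and 1.67% than in medium.

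Ppp1r15b, the constitutive subunit gene, read 11.35 in medium, 11.35 in DMSO, 11.40 in GSK-J5 and 11.56 in GSK-J4. Its margin of 0.16, or 1.12-fold, was wider than the control range of 0.05 but far from the 1.5-fold rule, and 17.9% of all genes had a margin at least as large. Ppp1ca, Ppp1cb and Ppp1cc, which encode the catalytic subunits of protein phosphatase 1 that both products recruit, had differences of 0.04, 0.02 and −0.13 from GSK-J5; they are named here for that role, after their values were seen. A second, dimmer probe set of Ppp1cb had a margin of 0.20.

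Eif4ebp1, the translation repressor gene, read 13.13 in medium, 13.10 in DMSO, 13.15 in GSK-J5 and 13.42 in GSK-J4. The controls lay within 0.05 of each other and GSK-J4 was 1.21-fold above the highest. The difference was 0.27 to GSK-J5, 0.32 to DMSO and 0.29 to medium, and 9.73% of all genes had a margin at least as large. Eif4ebp1 did not reach the 1.5-fold rule against any control.

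**Figure D2:**
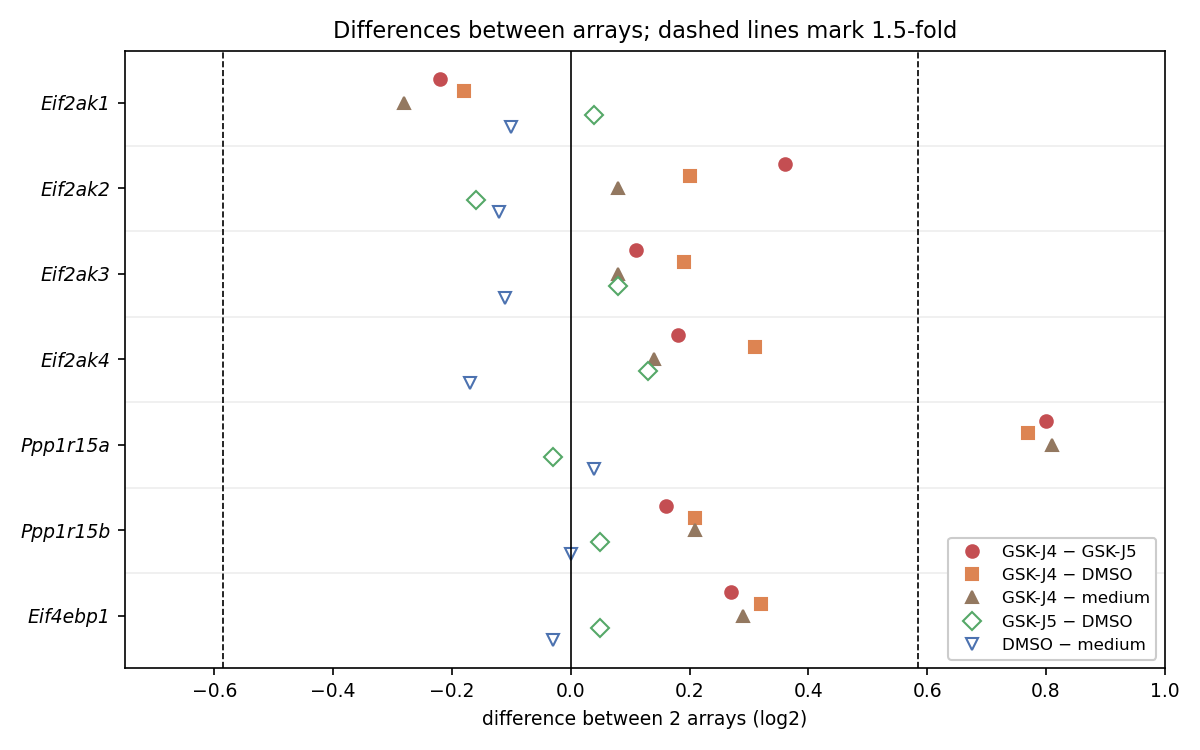
Difference between pairs of arrays (horizontal axis, log2) for each measured gene; filled symbols set GSK-J4 against a control, open symbols set controls against each other, and dashed lines mark 1.5-fold. The filled symbols of Ppp1r15a (0.77 to 0.81) lie beyond the dashed line, those of Eif4ebp1 (0.27 to 0.32) lie close together inside it, and those of Eif2ak2 are spread from 0.08 to 0.36.

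Setting the upstream kinases against the feedback genes Ppp1r15a and Eif4ebp1, the mean GSK-J4 minus GSK-J5 difference was 0.11 over the 4 kinase genes, with a range of −0.22 to 0.36. It was 0.54 over the pair of feedback genes, at 0.27 and 0.80. The feedback mean thus exceeded the kinase mean by 0.43, or 1.34-fold. The same contrast was 0.42 against DMSO and 0.55 against medium. Between controls it was −0.01 for GSK-J5 minus DMSO, 0.13 for DMSO minus medium and 0.12 for GSK-J5 minus medium. Single genes overlapped against GSK-J5, where Eif2ak2 (0.36) exceeded Eif4ebp1 (0.27), and did not overlap against DMSO, where the highest kinase was at 0.31 and Eif4ebp1 at 0.32, or against medium, where they were at 0.14 and 0.29. The contrast rests largely on Ppp1r15a, since the feedback class holds only 2 genes.

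The margins were also set against the spread among the controls. Of the 7, 4 had a margin wider than their own control range: Ppp1r15a, Eif4ebp1 and Ppp1r15b above, and Eif2ak1 below. They were also the 4 members with the largest margins in size. Over all genes 39.5% had such a margin on either side, 21.5% above and 18.1% below. Among the kinase genes 1 of 4 did. The controls are 3 different treatments, so this range is not a replicate error. Between GSK-J4 and GSK-J5 the median difference over the 7 measured members was 0.18, beside 0.00 over all genes.

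**Figure D3:**
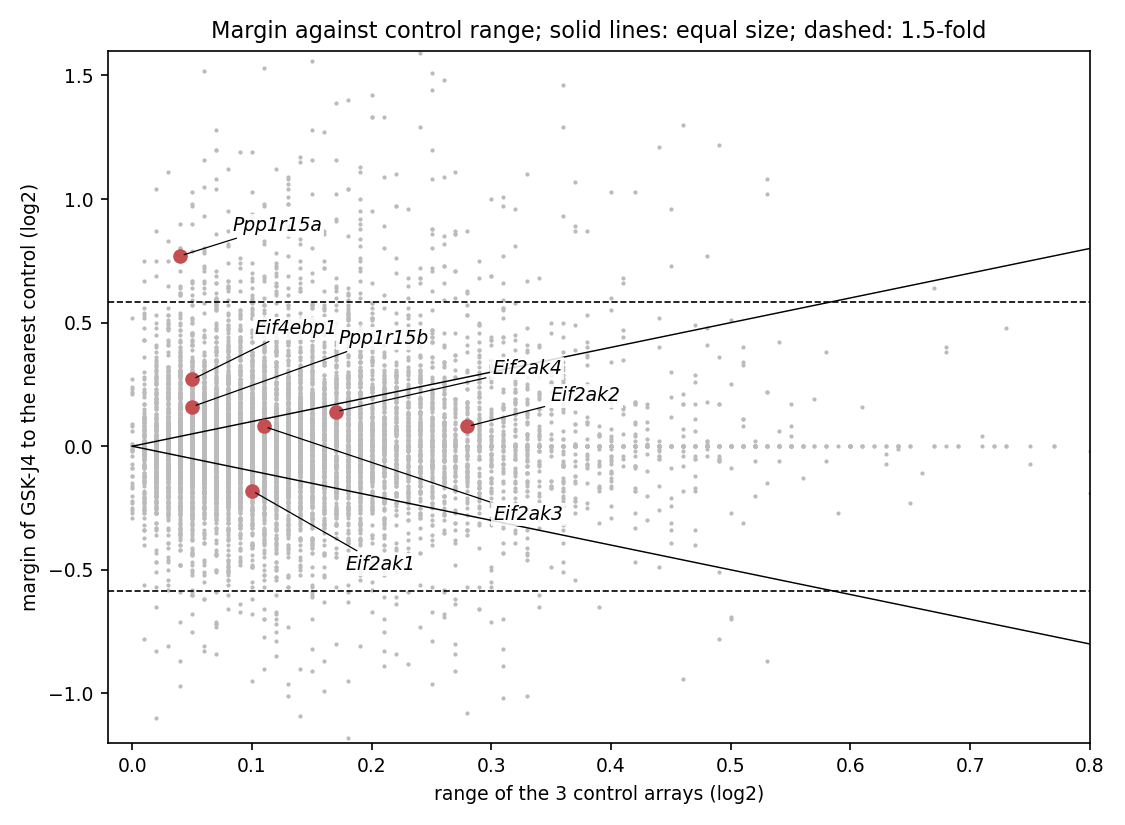
Margin of GSK-J4 to the nearest control (vertical axis, log2; 0 where GSK-J4 lies among the controls) against the range of the 3 controls (horizontal axis, log2); grey points are the genes that passed the filter, red points the 7 members, and 22 of the 13314 genes lie outside the axes. Ppp1r15a lies above the dashed 1.5-fold line, while Eif2ak2, Eif2ak3 and Eif2ak4 lie between the solid lines, where the margin is smaller than the control range.

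GSK-J4 and its isomer GSK-J5 form the single pair of related compounds at a matched dose and time. They differed by 1.5-fold in 1 of the 7 genes, Ppp1r15a, at 1.74-fold. No interval can be given for the other 6 differences, from −0.22 to 0.36, so they do not show that the compounds acted alike on these genes. GSK-J5 itself differed from DMSO by −0.16 for Eif2ak2, 0.13 for Eif2ak4 and at most 0.08 in size for the other members. None of the 7 reached 1.5-fold there, and over all genes 0.0526% were higher and 0.120% lower.

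The profile of Ppp1r15a was the only one with a range of at least 1.5-fold over the 4 arrays. The genes closest to it, by the distance between profiles centred on their own means over the 4 arrays, were Ciart, a circadian transcriptional repressor gene (distance 0.0296), Wls, which encodes a carrier for WNT secretion (0.0424), and Fbxw9, an F-box protein gene (0.0456). Ciart read 9.86, 9.88 and 9.86 in medium, DMSO and GSK-J5 and 10.63 in GSK-J4. Within a distance of 0.2, a limit chosen after the values were seen, lay 203 genes. They came from the 13314 that passed the filter, with the members left out. This pattern of level controls and a higher GSK-J4 value was thus not particular to Ppp1r15a, though most genes did not have it.

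The rest of the translation control machinery was read from lists of related genes. Among the subunits of eIF2 and its exchange factor eIF2B with the factors that deliver initiator tRNA, 0 of 12 were called higher and 0 lower. Of the 12, 5 lay above and 7 below every control, and their median difference from GSK-J5 was −0.06. Over all genes that passed the filter 38.0% lay above and 35.5% below every control. There 2.21% were called higher and 0.841% lower, so 0 calls in a short list, here and below, is near those shares. Eif2s2, the beta subunit gene, differed most from GSK-J5 (−0.36), followed by Eif2s3y, the Y-linked gamma subunit gene (0.33). The 5 genes of eIF2B, Eif2b1 to Eif2b5, differed from GSK-J5 by −0.13 to 0.02.

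Genes of kinase regulators and catalytic phosphatase subunits also gave 0 of 12 in either direction, with a median of 0.04. The largest differences from GSK-J5 were those of Impact, an inhibitor of GCN2 activation, and Dele1, which relays mitochondrial stress to HRI. Impact read 11.72, 11.81 and 11.73 in medium, DMSO and GSK-J5 and 12.08 in GSK-J4, and Dele1 read 10.48, 10.37 and 10.41 against 10.69. Hspa5, the chaperone that holds PERK inactive, read 10.24 in GSK-J4 against 10.42 to 10.54 and is named after its value was seen.

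On the ATF4 arm, 11 of 15 genes that passed the filter were called higher and 0 lower, and all 16 measured lay above every control. Over all genes that passed the filter 2.21% were called higher and 0.841% lower, and 38.0% lay above every control. Slc7a11 was under the filter (7.27 in GSK-J4 against 5.04 to 5.49), and its second, dimmer probe set had a margin of 0.11. Vldlr, a lipoprotein receptor gene, reached the filter only through its GSK-J4 value (8.09 against 6.33 to 6.79). Filtered on the control arrays alone, an alternative chosen after seeing the data, 10 of 14 were higher and 0 lower. The share of all genes called under that filter was not computed. Over all 16 measured, Vldlr and Slc7a11 included, the median difference was 1.09 from GSK-J5, 1.17 from DMSO and 1.22 from medium. Among the called genes the farthest was Nupr1, a stress-induced chromatin protein gene (margin 2.50). The pseudokinase gene Trib3 (2.02), the mTORC1 inhibitor gene Ddit4 (1.84) and Ddit3, which encodes CHOP (1.76), followed. This list was drawn up with results of these arrays known, so its direction is not independent evidence. Ppp1r15a and Eif4ebp1 are not on this list. The margin of Ppp1r15a, 0.77, lay between those of the list genes Cebpg (0.73) and Cebpb (0.86). The margin of Eif4ebp1, 0.27, lay between those of Psat1 and Asns. The smallest margins of the list were those of Slc3a2 (0.20), Psat1 (0.25), Asns (0.44) and Atf4 itself (0.56). These genes, Cebpg and Cebpb are named after their values were seen.

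Among the cap-binding proteins and other 4E-BPs, 0 of the 12 that passed the filter were called, with a median of 0.05 over the 13 measured. Mknk1, a kinase gene for eIF4E, read 7.98 in GSK-J4 against 7.37 to 7.48. Eif4e, whose product 4E-BP1 binds, read 11.28 against 11.61 to 11.65. Eif4ebp2, the paralogue of Eif4ebp1, read 12.18 against 12.15 to 12.16, a margin of 0.02 beside 0.27 for Eif4ebp1, and is named after its value was seen. Of 9 mTORC1 genes and inputs 0 were called, with a median of 0.08. Rps6kb2, an S6 kinase gene, differed from GSK-J5 by 0.59 with a margin of 0.44, and Mlst8, an mTORC1 subunit gene, differed by 0.26 but equalled the medium array.

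Interferon-stimulated genes were read as the setting of Eif2ak2. None of the 5 that passed the filter was called in either direction. Over all genes that passed the filter 2.21% were called higher and 0.841% lower, so 0 of 5 is near those shares. Of the 13 measured 0 lay above and 7 below every control. Among all genes that passed the filter 38.0% lay above and 35.5% below, but the 13 include genes under the filter. The median of the 13 was −0.24 against GSK-J5 and −0.08 against medium, while Eif2ak2 itself was above every control. The farthest from GSK-J5 were the antiviral genes Rsad2 (−0.66) and Ifit1 (−0.51). Both averaged less than the filter level, where a signal above background cannot be assumed and the size of a difference is uncertain.

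**Figure D4:**
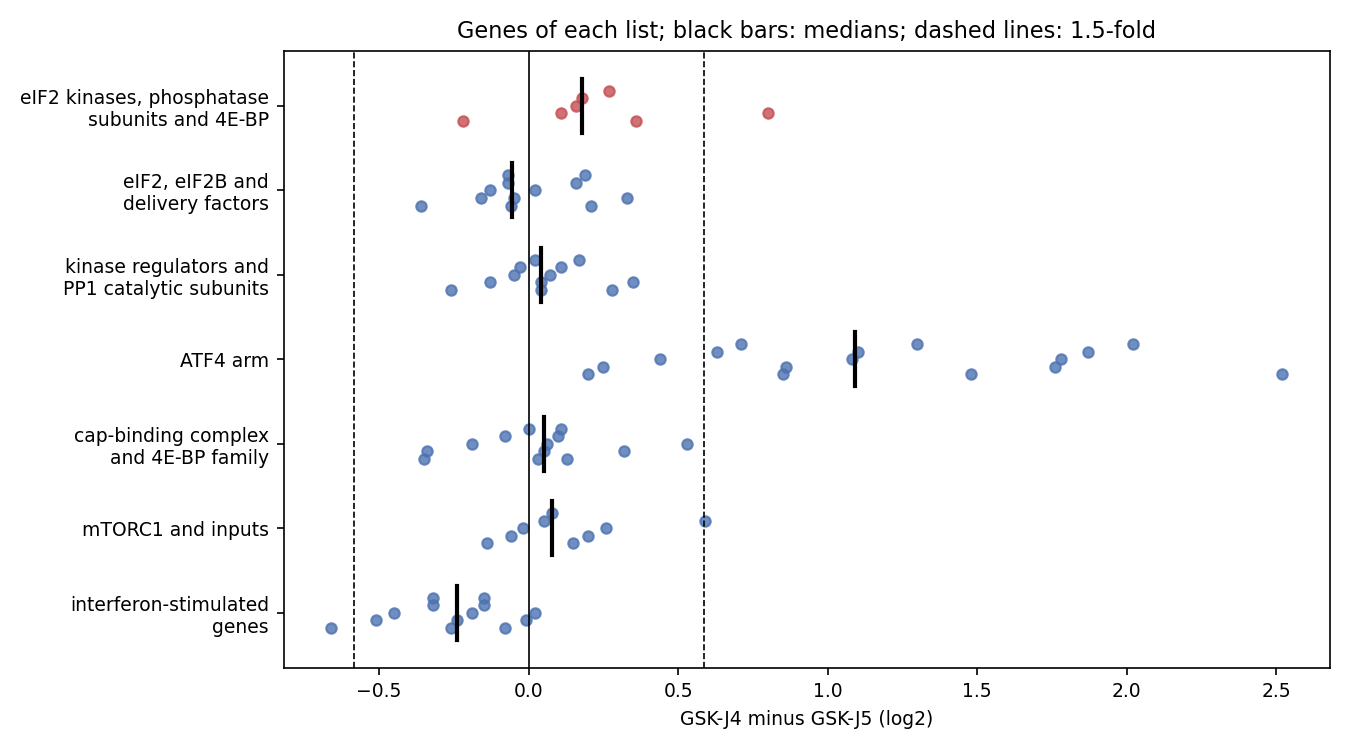
GSK-J4 minus GSK-J5 difference (horizontal axis, log2) of every measured gene of the members (red) and of the pathway lists (blue), 1 point per gene, with black bars for medians and dashed lines at 1.5-fold; marker lists of cell types are not drawn. The ATF4 arm (median 1.09) lies to the right of the other groups drawn, whose medians run from −0.24 for interferon-stimulated genes to 0.18 for the members.

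Array medians over all 41345 probe sets lay between 6.63 and 6.65. All 8 markers of pluripotent and early epiblast cells passed the filter on these arrays. Of these 6 lay below and 0 above every control, with a summed linear level of 50575 to 51467 in the controls and 45214 in GSK-J4. The markers differed: Dnmt3b was called lower (margin −0.77), and Tdgf1 had a margin of −0.36. Margins were −0.11 for Lin28a, −0.09 for Utf1, −0.06 for Nanog, −0.05 for Pou5f1 and 0.00 for Sox2 and Sall4. Of 9 feeder fibroblast markers 6 lay below and 0 above every control. The summed linear level of the 9 was 1067 to 1132 in the controls and 956 in GSK-J4. Only 5 of the 9 passed the filter: Col3a1, Dcn, Lum and Postn did not, and Dcn and Lum are counted among those below. Over all genes that passed the filter 35.5% lay below every control. Of 7 blood and endothelial markers 4 lay above every control, beside 38.0% of all genes that passed the filter. The summed level of the 7 was 2393 to 2477 in the controls and 3338 in GSK-J4. Pecam1, an adhesion molecule gene, made up 69.0% to 72.7% of this sum on each array, and without it the sum was 666 to 706 in the controls and 1034 in GSK-J4. Laptm5 was called higher (margin 1.29), while Ptprc, the pan-leukocyte marker gene, read 4.37 to 4.51 on all arrays, and Ptprc, Kdr and Gata1 did not pass the filter. Primitive endoderm markers had 3 of 6 above and 3 below, with a summed level of 779 to 823 in the controls and 778 in GSK-J4. Of these Gata6, Sox17 and Sox7 did not pass the filter. The part of these markers in the results for Ppp1r15a, Eif4ebp1 and the kinase genes was not tested. In RNA from whole embryoid bodies, fewer cells of a type and less RNA per cell cannot be told apart.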

How the data were processed

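Total RNA from 4 embryoid body cultures, 1 per treatment, was hybridised to Affymetrix arrays. The deposited values are log2 expression from RMA, which the authors ran in Expression Console 1.2.1.20 according to the submitters' processing notes. No source used here names the log base; base 2 was inferred from values between 2.20 and 14.48. Names came from the platform annotation: of 41345 probe sets, 23521 had 1 symbol, 1814 several and 16010 none listed, and those without exactly 1 were left out. The brightest probe set stood for a gene. Each array was assigned from its treatment label.

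Members, lists and rules were chosen with earlier results of these data known. Genes named are the members; from each list up to 4 called genes per direction by margin, or, where none was called, the 2 farthest from GSK-J5; and the 3 closest profiles of any member ranging over 1.5-fold. Analysis used Python 3.11.15 with pandas 2.3.3, numpy 2.4.6 and statsmodels 0.14.6. The size rule was tested on simulated data. The differences placed there were larger than those of any member, so that test does not show how differences of the members' size would be called. Alternatives were other filters, folds, normalizations, references and probe set summaries, and leaving out each control. Scanner files were not used here, so detection was not examined. Precision is limited by the number of arrays.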

Additional observations from a re-analysis of the deposited data

How the results depend on the processing

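Ppp1r15a was called higher under all alternatives tried except the 2-fold rule, under which 0 members were called. Its margin was 0.69 after repeated quantile normalization, 0.70 after loess and 0.79 against the mean of the controls, and 0.77 to 0.80 with a control array left out. Every member's margin kept its sign: Eif2ak1 ran from −0.24 to −0.17, Eif2ak2 from 0.04 to 0.21, Eif2ak3 from 0.02 to 0.13, Eif2ak4 from 0.08 to 0.21, Ppp1r15b from 0.15 to 0.21 and Eif4ebp1 from 0.27 to 0.30. The upper ends for Eif2ak2, Eif2ak3 and Eif2ak4 are distances to the mean of the controls. To the nearest control, their highest margins were 0.2, 0.11 and 0.18, with the medium array left out. The feedback minus kinase contrast was 0.545 with medium as the reference and 0.3025 with Ppp1r15b added to the feedback class. On the ATF4 arm 7 genes, Vldlr among them, were called by the 2-fold rule. A laxer rule, 0.32 on the log2 scale, called 1 cap-binding gene higher and 1 lower, 1 mTORC1 gene higher and 1 interferon-stimulated gene lower. Over all genes the calls, 294 higher and 112 lower, became 76 and 14 by the 2-fold rule, 955 and 527 by the laxer rule, and 191 and 75 with the filter at the 60th percentile. No paired analysis was possible because each treatment has 1 array. The margins of 0.08 for Eif2ak2 and Eif2ak3 are smaller than the control ranges of the same genes, 0.28 and 0.11.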
